A study of Mus musculus with 244 samples.

Results

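The transcripts described here are rows of the count table that carry no gene symbol but the name of a mouse genomic clone, RP23 or RP24 followed by the clone's position and a number. Of 25149 rows, 25122 have a usable name, 4899 of these are RP23 or RP24 rows, and 4461 of the clone-named rows have values on all 6 library plates. The members are the 70 of these 4461 whose pooled level over the 59 oocytes was at least 100 CPM, with 47 RP23 and 23 RP24 names. They were thus selected on their measured level in oocytes, and that level is given below as a description. Pooled CPM is the sum of a row's counts over the sum of the cells' totals, scaled to 1000000 counts, the totals being taken over the 13266 rows with values on every plate. The last members inside the threshold were RP23-216P14.8 at 104 and RP23-438D7.4 at 103 CPM, and the first rows outside it were RP23-359B23.5 at 95.1 and RP24-230J14.5 at 89.4 CPM.

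Single cells were hand-picked from dissociated follicles of ovaries of the outbred CD-1 mouse stock at postnatal day 6, and each was sequenced as its own SMART-Seq2 library. Ovaries were pooled before digestion and the labels name neither the animal nor the collection of a cell. The cells of a type and stage were therefore treated as 1 sample, and no test between groups was made. The oocytes were 13 from primordial, 19 from transitioning, 20 from primary and 7 from secondary follicles, and the somatic cells were 40, 47, 56 and 42 from the same stages. No genotype or treatment separates the groups, which differ in cell type, in follicle stage and also in the library plates that hold them: 15 of the transitioning oocytes are on plate 4, primordial oocytes are on plates 1, 2 and 5, and secondary oocytes on plates 5 and 6. A primordial follicle is a resting oocyte inside flat pre-granulosa cells, transitioning follicles mix flat and cuboidal cells as they begin to activate, a primary follicle is enclosed by cuboidal cells alone, and a secondary follicle has gained further layers of them. Total counts per cell had a median of 96024 in oocytes (5440 to 801258) and 72279 in somatic cells (5150 to 409310). Of the oocyte markers, 6 of 21 have values on every plate, and they took 0.693% to 9.94% of the counts of an oocyte and 0% to 0.962% of a somatic cell. No oocyte held more counts on the 11 listed somatic markers than on the oocyte markers, while 4 somatic cells held more on the oocyte markers. The paper had removed cells that scored high for markers of the other cell type. The somatic cells per stage match in number those it kept, so these marker values follow in part from that filter.

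RP23 and RP24 are libraries of large fragments of the C57BL/6J genome cloned in bacteria, which were used to sequence and annotate the mouse genome by hand. Manual annotators named a locus without an official symbol after the clone it lies on, and many such loci are long non-coding RNAs, processed pseudogenes or copies of repeated genes. Growing oocytes store large amounts of RNA for use after ovulation and in the early embryo, and many oocyte transcripts start in retrotransposon sequences. None of the 70 names matched a symbol or synonym in the reference tables, so their positions, lengths and sequences are not given here. For the same reason CPM could not be divided by length, and an order of members by CPM is an order by share of counts, not by number of molecules.

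The members took 47.6% of all oocyte counts on listed rows (47.5% to 47.6%, exact binomial interval at 95%, counting error only) and 7.29% of those of somatic cells. In single oocytes the share ran from 15.6% to 74.4% with a median of 34.2%, and in single somatic cells from 2.25% to 30.3% with a median of 6.4%. The ranges of the 2 cell types overlapped, with 9 somatic cells above the lowest oocyte. Over all counts of a cell, rows missing on some plates included, the members took 26.7% of the oocyte counts. All clone-named rows with values on every plate took 48.4% in oocytes and 12.3% in somatic cells, so the 70 members hold nearly all the oocyte counts of these rows. Clone-named rows without values on every plate are not part of this share. The deepest contribution came from 1 primordial oocyte on plate 2, which holds 7.4% of the oocyte counts and in which 17 members had their highest count, and without it the pooled share was 45.4%.

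**Figure D1:**
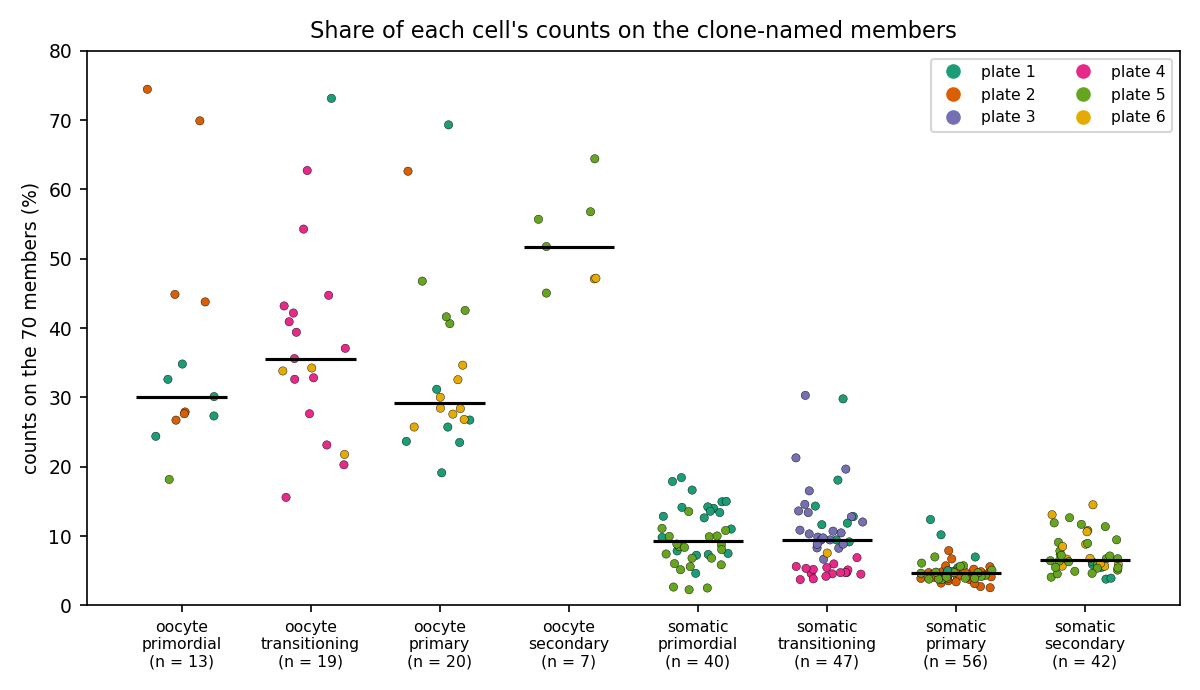
Share of a cell's counts on the 70 members (vertical axis, percent of counts on rows with values on every plate) for each of the 59 oocytes and for the somatic cells by follicle stage, 1 point per cell coloured by library plate, with a black bar at the group's median. The oocytes lie between 15.6% and 74.4%, and the medians of the somatic groups lie between 4.63% and 9.42%.

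The members were of 3 kinds by level and by how their reads were counted, a division made after the values were seen. The deposited counts are estimates, and in such counts a value that is not a whole number can hold parts of reads divided between rows. Such values are called divided here, although how they arose is not given in the sources used. In 17 members, with oocyte levels from 8894 to 99049 CPM, 96.6% to 100% of the values above 0 were not whole. Another 39 members had levels of 103 to 3272 CPM with 43% to 100% of values not whole. The last 14 members, at 104 to 3400 CPM, had at most 18.6% of values not whole, a value being called whole within 0.001 of an integer. Of all members, 80% had at least 20% of their values not whole, against 21.1% of the 698 other rows at 100 CPM or more in oocytes, whose median was 0%. The level of a member with divided counts is uncertain, since it may depend on how shared reads were assigned.

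RP23-272E5.1 alone took 99049 CPM in oocytes, close to 1 count in 10, with 10381 in the lowest oocyte, 80180 in the median one and 171833 in the highest. In somatic cells it stood at 3944 CPM, with a median of 1298 and a highest value of 60861 in single cells. Next in the order were RP23-309H21.1 with 41092 CPM in oocytes, RP24-351E22.1 with 36815 and RP24-541P18.1 with 33064. RP23-453P1.1, RP24-149G20.1, RP23-274G21.3, RP23-431M16.1 and RP23-42H18.6 followed with 28002, 24460, 23728, 22173 and 20659 CPM. RP24-560A18.3 had 19263 CPM, RP24-285I4.2 19117 and RP23-89F9.7 15263. The abundant set is completed by RP23-233O21.6, RP24-357G2.2, RP24-227O16.1, RP24-317P24.1 and RP23-264D16.7, at 14901, 13302, 9982, 9458 and 8894 CPM. Of these 17 members, 16 had reads in each of the 59 oocytes and RP24-541P18.1 in 58. For scale, Ooep, which encodes an oocyte protein needed by the early embryo and is a marker of the cell type, stood at 17079 CPM in the same oocytes.

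The question of the comparison with somatic cells was which of these transcripts were also found outside the oocyte. A member is called higher or lower where the log2 ratio of pooled CPM was at least 1 in size, a rule of size and not a test. In oocytes 38 of the 70 members were higher than in somatic cells, and 20 were lower, with a median log2 ratio of 1.33. Of all 768 rows at 100 CPM or more in oocytes, 37.1% were higher and 21% lower, with a median of 0.35. As shares of the members the counts were 54.3% and 28.6%, but the members' level in oocytes is what they were selected on and nothing is read from the first of these counts. The lower calls depend on the scaling: with TMM factors the median of all 768 rows moved from 0.35 to 1.53 and the members were split 46 higher to 10 lower, against 61.7% and 6.77% of all rows, and with median-of-ratios factors the median was 2 and the split 48 to 5, against 71.7% and 4.04%. With totals over the rows that are not clone-named, a scaling chosen after the data were seen, the split was 43 to 10, against 52.2% and 9.9%.

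Among the 17 abundant members, 16 were higher in oocytes and the median log2 ratio was 4.65. This set was marked off by its oocyte level, so nothing is read from that count, nor from the counts of higher members in the other kinds below. The somatic level of the 17 was 2.99% to 64.6% of the oocyte level with a median of 3.98%. The 4 abundant oocyte markers had remainders of the same order: 1.94% for Dazl, a germ cell RNA-binding protein, 2.4% for Ooep, 3.22% for Bmp15, a growth factor secreted by the oocyte, and 5.24% for Sohlh1, a transcription factor of early oocytes. The other 2 listed markers were under 10 CPM in both cell types, Taf7l with 7.25 CPM in oocytes and a somatic level of 12% of it, and Sox30 with 1.96 CPM and 329.6%. RP24-149G20.1 had the highest ratio of the abundant set, 5.07 (5.03 to 5.10) on the log2 scale or 33.5-fold, followed by RP23-453P1.1 with 4.93 (4.90 to 4.97). The exception was RP24-227O16.1, which had reads in every cell of both types and stood at 9982 CPM in oocytes against 6452 in somatic cells, a log2 ratio of 0.63 (0.61 to 0.65). On the 5 plates with at least 5 cells of both types its log2 ratio ran from 0.45 to 1.30, and it passed the size rule on 2 of them.

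**Figure D2:**
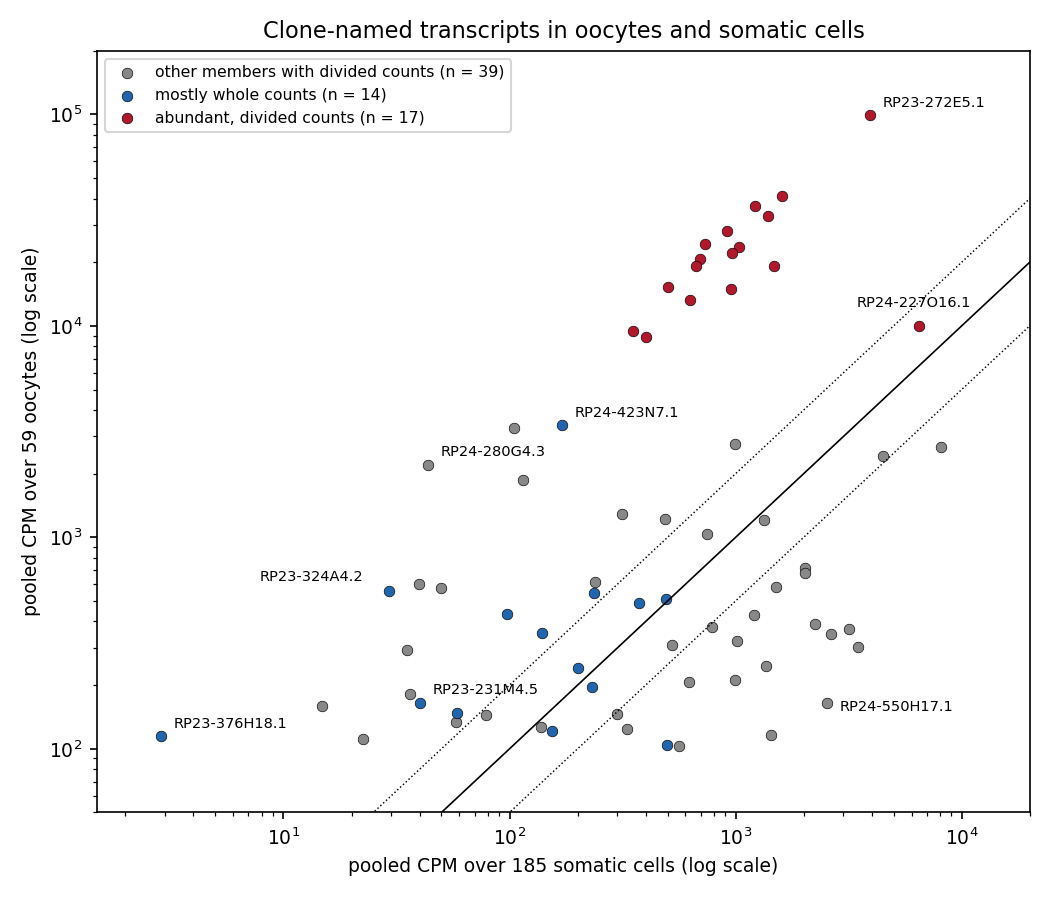
Pooled CPM of each of the 70 members over all somatic cells (horizontal axis, log scale) and over the 59 oocytes (vertical axis, log scale), coloured by the kind of counts, with the line of equal level solid and the lines at a log2 ratio of 1 and -1 dotted. The abundant members other than RP24-227O16.1 lie in a band above the upper dotted line, and the other members with divided counts spread to both sides.

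Somatic cells with a higher share of the abundant members tended to have a higher share of oocyte markers. These cells match in number those the paper kept after it removed somatic cells with high oocyte marker scores. Over all somatic cells the share of counts on the 17 abundant members and the share on the 6 oocyte markers had a Pearson r of 0.61, and 0.56 with plate means subtracted, a description over cells that share plates and totals. Over the oocytes the same relation had the opposite sign, with r of -0.33 and -0.45. In single oocytes the abundant members took 10.7% to 72.4% of the total, and a higher share of them leaves less for any other row. The part of this in the sign was not tested. In the 76 somatic cells without any count on an oocyte marker the median share was 0.995% and the highest 10.5%, against a median of 1.65% over all somatic cells. By plate the pooled share in somatic cells ran from 0.574% on plate 2 and 0.968% on plate 4 to 2.1% on plate 5, 3.39% on plate 1, 3.74% on plate 6 and 5.83% on plate 3, a plate without oocytes. The abundant members also kept much the same proportions to each other in both cell types: as a percentage of RP23-272E5.1, 13 of 16 lay within 1.5 times, for example RP23-309H21.1 with 41.5% in oocytes and 40.7% in somatic cells and RP24-541P18.1 with 33.4% and 35.3%. Outside that range were RP24-285I4.2 with 19.3% and 37.7%, RP23-233O21.6 with 15% and 24.1%, and RP24-227O16.1 with 10.1% and 164%. Whether RNA from oocytes contributed to the somatic libraries was not tested. Leaving out the 4 somatic cells with more oocyte than somatic marker gave 38 higher and 20 lower members.

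**Figure D3:**
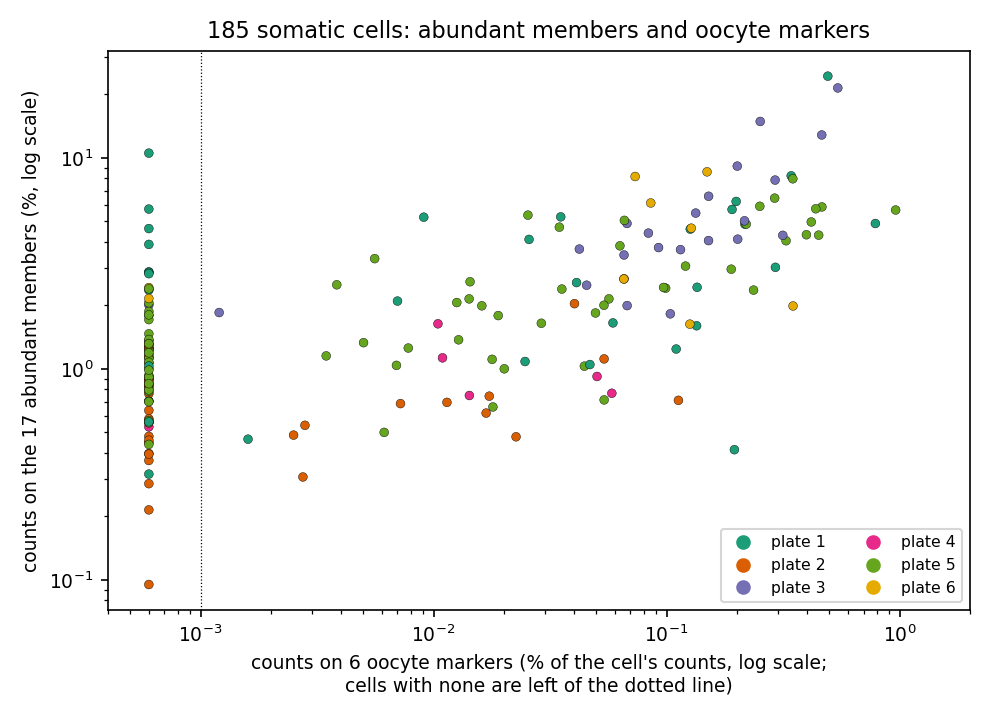
Share of counts on the 17 abundant members (vertical axis, percent, log scale) against the share on 6 oocyte markers (horizontal axis, percent, log scale) for the somatic cells, 1 point per cell coloured by plate, with cells that had no marker count drawn left of the dotted line. Cells with more oocyte marker tend to lie higher, and the 76 cells without marker counts have a median of 0.995%.

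The 39 other members with divided counts went both ways. In 14 of them the oocyte level was higher, in 19 the somatic level, and 6 lay between. RP24-280G4.3 had the largest log2 ratio of all 70 members, 5.66 (5.51 to 5.82), with 2204 CPM in oocytes and 43.6 in somatic cells, 50.6-fold. Its single oocytes ran from 0 to 19352 CPM with a median of 2018, and oocytes of plate 1 were the low ones, at 307 CPM pooled. RP23-61O10.1, with 3272 against 105 CPM, followed with a log2 ratio of 4.97 (4.87 to 5.07). RP24-294K15.7 had reads in every oocyte and stood at 1870 against 114 CPM, RP23-149A1.2 at 601 against 39.9 and RP23-188D8.12 at 573 against 49.6, 16.4-fold, 15.1-fold and 11.6-fold higher in oocytes. RP23-264J18.3 was abundant in both, at 2766 against 996 CPM. The other members of this kind that were higher in oocytes were RP23-141N19.12, RP23-478I18.1, RP24-202N2.3, RP23-42O8.9, RP23-199B10.2, RP23-396C19.4, RP23-144N15.11 and RP23-137A24.3. Those between the limits were RP24-120L6.1, RP24-228M19.1, RP23-300F10.2, RP23-93A21.1, RP23-453N3.4 and RP23-382I10.2, of which RP24-120L6.1 was the most abundant with 2412 against 4481 CPM.

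RP24-550H17.1 lay at the other end, with 165 CPM in oocytes and 2534 in somatic cells, a log2 ratio of -3.94 (-4.03 to -3.85). It had reads in 43 of 59 oocytes and 183 somatic cells (24 of 55 and 165 of 167 with each cell thinned to 12000 counts and cells with fewer left out), and 40.7% of its oocyte counts came from 1 primordial oocyte of plate 1. RP24-390N7.1 stood at 116 against 1436 CPM, a log2 ratio of -3.63 (-3.74 to -3.53). RP23-33C9.1 stood at 303 against 3486 CPM, RP23-167J19.2 at 368 against 3166 and RP24-458F14.4 at 349.7 against 2639, with log2 ratios of -3.53, -3.11 and -2.92. The remaining members of this kind that were lower in oocytes were RP23-68E4.3, RP23-24J10.5, RP23-181P23.2, RP23-300H4.1, RP23-356D13.9, RP23-285L15.1, RP23-99B10.2, RP23-79J21.3, RP23-39F24.2, RP24-82E11.1, RP23-359F12.4, RP24-392J24.4, RP24-448C16.5 and RP23-438D7.4. Membership of 4 members rested on 1 oocyte, their level without it being under 100 CPM: RP24-550H17.1 with 98.5, RP23-382I10.2 with 95.4, RP23-216P14.8 with 95.8 and RP23-438D7.4 with 99.5.

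The 5 members with the lowest ratios had reads in 177 to 184 somatic cells, from all 4 follicle stages. From primordial to secondary follicles the pooled somatic level of RP24-550H17.1 was 4443, 2945, 1291 and 2137 CPM in the order of the stages, and single somatic cells ran from 0 to 17756 with a median of 1812. RP24-390N7.1 had 1921, 1696, 664 and 2042 CPM in the same order, RP23-33C9.1 5487, 4270, 1804 and 2983 CPM and RP23-167J19.2 5172, 3564, 1580 and 3583 CPM. All 4 were lowest in the somatic cells of primary follicles, as was RP24-227O16.1 with 8755, 6911, 4111 and 8261 CPM. RP24-458F14.4 differed from them, with 5222, 2963, 1729 and 819 CPM, and 1 somatic cell reached 88812 CPM against a median of 1077. Stages of somatic cells also differ in their plates, and the part of the plate in these levels was not tested.

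The 14 members with mostly whole counts have the fewest values that are not whole, and 8 of them were higher in oocytes. RP24-423N7.1 stood at 3400 CPM in oocytes and 171 in somatic cells, a log2 ratio of 4.32 (4.24 to 4.40), with 0 in the lowest oocyte, 841 in the median one and 19183 in the highest. It had reads in 58 oocytes and 44 somatic cells, or 55 and 35 of the thinned cells, and none of its values were divided. RP23-376H18.1 was the member with reads in the fewest somatic cells, 3, against 37 oocytes. Among thinned cells it had reads in 22 of 55 oocytes and 2 of 167 somatic cells. Its levels were 114 and 2.86 CPM, a log2 ratio of 5.32 (4.72 to 5.99) that rests on 23 somatic counts. On plate 6 it had no somatic count and 6 counts in oocytes, too few to give a direction.

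RP23-324A4.2 had 556 CPM in oocytes and 29.2 in somatic cells, a log2 ratio of 4.25 (4.06 to 4.44), and plate 5 held 199 of its 235 somatic counts. On that plate alone the ratio was 0.49 (0.06 to 0.90). RP23-231M4.5 stood at 165 against 40.2 CPM, with reads in 50 oocytes and 10 somatic cells (40 and 10 of the thinned ones), and was at least 2.1 higher on the log2 scale on each of the 5 plates. RP23-403O11.1 had 435 against 97.7 CPM, RP23-192P17.3 352 against 139, RP24-261H7.9 548 against 236 and RP23-109A22.2 148 against 58.6. These were 4.46-fold, 2.54-fold, 2.32-fold and 2.52-fold higher in oocytes. The level of 5 others was much the same in both cell types: RP24-194D17.3 had 509 against 491 CPM, RP24-202L5.2 489 against 373, RP23-341K9.1 241 against 201, RP23-3M10.7 196 against 232 and RP23-253N17.1 121 against 154. RP23-216P14.8, with 104 against 499 CPM, was the only member of this kind that was lower in oocytes.

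Within plates, 24 of the 70 members were higher in oocytes on each of the 5 plates with at least 5 cells of both types, 10 were lower on each, and 18 had log2 ratios of both signs. The shares of all rows under these rules over 5 plates were not worked out, so nothing about the members is read from these counts. On single plates between 33 and 37 members were higher and between 17 and 24 lower. That is 47.8% to 52.9% and 24.3% to 34.8% of the members, against 35% to 43% and 19.3% to 32.4% of all rows. The abundant set was higher on every plate apart from RP24-227O16.1, with a median log2 ratio of 3.07 on plate 6, 4.16 on plate 1, 5.56 on plate 5, 6.64 on plate 4 and 8.15 on plate 2. RP23-141N19.12 was an example of the last kind: its log2 ratio was -1.71 on plate 2 and 3.49 on plate 4, with 80.5 and 2964 CPM in the oocytes of these plates.

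Most of the abundant members varied together from oocyte to oocyte. After log2(CPM + 10) and subtraction of plate means, pairs of members joined at a Pearson r of 0.9 or more over the 59 oocytes formed 4 groups, a description of points that share plates and totals. The first held 7 members, RP23-272E5.1, RP23-453P1.1, RP23-431M16.1, RP23-42H18.6, RP24-560A18.3, RP24-317P24.1 and RP23-264D16.7, with r from 0.92 to 0.98 between any pair. Together they took 20.7% of oocyte and 0.794% of somatic counts, and in single oocytes from 18119 to 382037 CPM with a median of 143334. The second group was RP23-309H21.1, RP24-351E22.1, RP24-149G20.1 and RP23-89F9.7, with 11.8% of oocyte counts and r from 0.91 to 0.98. The third was RP24-541P18.1, RP23-274G21.3 and RP23-61O10.1, with 6.01% of oocyte counts and r of at least 0.91. These 3 groups also varied together, with r of 0.42 to 0.88 between members of different groups. The fourth, RP24-285I4.2, RP23-233O21.6 and RP24-357G2.2, took 4.73% of oocyte counts with r from 0.80 to 0.92, and it varied against the first, with r of -0.43 to -0.25. RP24-227O16.1 belonged to none. Within a group the proportions were steadier between oocytes than across groups: RP24-317P24.1 was 6% to 14% of RP23-272E5.1 in single oocytes with a median of 9.98%, whereas RP24-285I4.2 was 1.47% to 575% of it with a median of 14.2%.

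**Figure D4:**
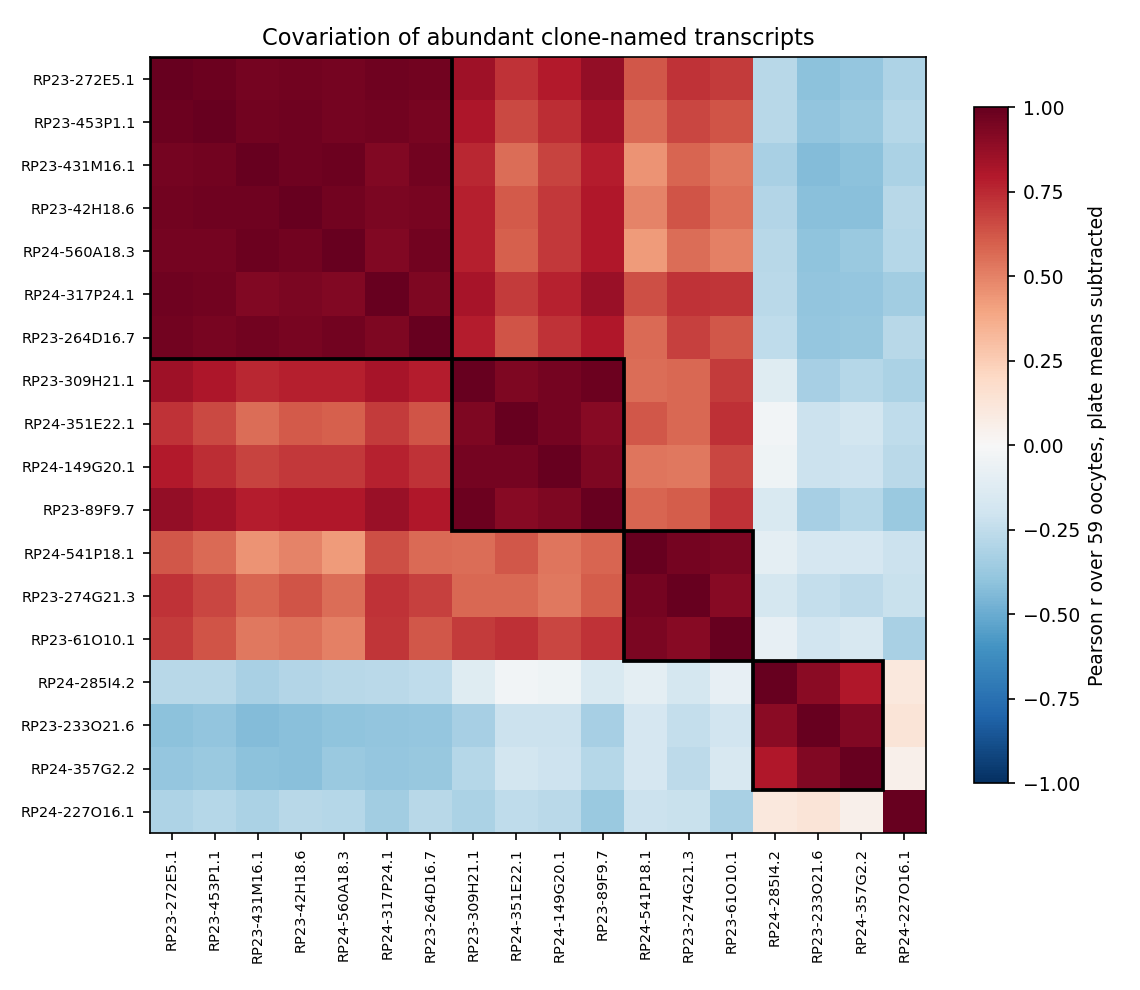
Pearson r between members over the 59 oocytes, on log2(CPM + 10) with plate means subtracted (colour, from -1 to 1), for the 17 abundant members and RP23-61O10.1, ordered by group, with black frames around the 4 groups joined at r of 0.9 or more. The frames hold 7, 4, 3 and 3 members, the first 3 are positively related to each other, and the fourth is negatively related to the first.

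The feature closest to each of the 12 leading members was searched among all 993 rows with at least 50 CPM in oocytes, and for 11 of the 12 it was another clone-named row. The highest were RP23-309H21.1 and RP23-89F9.7 at an r of 0.98 and RP23-272E5.1 and RP23-453P1.1 at 0.98. RP23-274G21.3 was closest to Olfr1173, a gene of the olfactory receptor family, at 0.97, and RP24-541P18.1 had the same gene as its closest row outside the RP23 and RP24 names, at 0.95. Another olfactory receptor gene, Olfr639, took that place for RP23-309H21.1, RP24-351E22.1, RP24-149G20.1 and RP23-89F9.7, at r of 0.87 to 0.90. For RP23-272E5.1 and the rest of its group among the 12 it was CH36-205D18.4, a row named after a clone of another library, at 0.92 to 0.98. These rows were themselves abundant and divided: CH36-205D18.4 stood at 17828 CPM in oocytes with 97.3% of values not whole, Olfr639 at 4933 CPM with 98.8% and Olfr1173 at 4260 CPM with 97.5%. The fourth group was different, its RP24-285I4.2 having as closest symbol mt-Nd4, a subunit of respiratory complex I encoded by mitochondrial DNA, at 0.62. Rows that share reads are not separate measurements, and whether these do was not tested.

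From each oocyte stage to the next the pooled levels of the abundant members differed by less than the size rule calls, with 1 exception at the last step, RP24-357G2.2. Single oocytes differed more than the pools. From primordial to secondary oocytes the 17 together took 42.8%, 42%, 48.9% and 48.9% of pooled counts. The medians of single oocytes were 22.3%, 31.6%, 26.3% and 49.2% in the same order. Over the whole span from primordial to secondary oocytes the differences in pooled level were larger in some members, RP23-233O21.6 having 17878 and 6633 CPM and RP24-317P24.1 7902 and 15951 CPM. RP23-272E5.1 had 95061 CPM in primordial oocytes, 94746 in transitioning, 109348 in primary and 132997 CPM in secondary oocytes. Its single cells ran from 10381 to 170227 CPM in primordial and from 112052 to 171833 in secondary oocytes. Single plates gave another picture. On plate 1 13 of the 17 were higher in 7 primary than in 5 primordial oocytes, with a median log2 ratio of 2.14, where 12% and 42.9% of all rows were higher and lower. This holds for pooled levels and not for the median cell. The 17 took 56.9% of the pooled counts of these primary oocytes but a median of 19.8% in single ones (13% to 67.3%). In the primordial oocytes of plate 1 they took 21.7% pooled, with a median of 22.3% (18.4% to 27.1%). Among primordial oocytes alone 13 of the 17 were higher on plate 2 than on plate 1, by a median of 1.97, against 21.2% and 44.4% of all rows higher and lower. RP23-272E5.1 stood at 27271 CPM in the primordial oocytes of plate 1, 108999 in those of plate 2 and 20223 in the 1 of plate 5. Of the 13 primordial oocytes, 3 have in the deposited metadata the time code used for secondary follicles, and their titles were followed. Secondary oocytes were the most even, with 45% to 64.4% of their counts on the members.

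From primordial to transitioning oocytes 4 members were higher and 14 lower at the later stage, against 23.7% and 11.8% of the 768 rows. As shares of the 70, that is 5.71% and 20%. The largest difference was in RP24-423N7.1, with 6680 CPM in primordial and 957 in transitioning oocytes, a log2 ratio of -2.80 (-2.87 to -2.74). It came from plate 2, where the 7 primordial oocytes ran from 521 to 19183 CPM. The 5 on plate 1 ran from 320.2 to 995 and the 1 on plate 5 had 497, so that the pooled value of plate 1, 504 CPM, and that of plate 5 lay below the transitioning level. RP24-550H17.1 and RP23-167J19.2 were next, with log2 ratios of -2.70 and -2.09, and 1 primordial oocyte of plate 1 held 37.6% of the oocyte counts of the latter. In the other direction RP23-149A1.2 had 210.2 CPM in primordial and 866 in transitioning oocytes, a log2 ratio of 2.04 (1.91 to 2.18). RP23-141N19.12 and RP23-300H4.1 had log2 ratios of 1.99 and 1.46. These counts rest on the plates. Without the primordial oocytes of plate 2, the numbers of members higher and lower were 24 and 20, and the shares of all rows 20.4% and 20.2%. Without plate 1 the numbers were 10 and 8, and the shares of all rows 41% and 11.1%. No plate holds several oocytes of both stages, so stage and plate cannot be told apart here.

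From transitioning to primary oocytes 5 members were higher and 12 lower, against 6.64% and 16.9% of all rows, or 7.14% and 17.1% of the members. RP23-324A4.2 had 898 CPM in transitioning and 206 in primary oocytes, a log2 ratio of -2.12 (-2.32 to -1.94). RP23-141N19.12 and RP23-359F12.4 had log2 ratios of -2.05 and -1.89. RP24-550H17.1, RP23-109A22.2 and RP24-202N2.3 were the highest in the other direction, at 1.36, 1.34 and 1.16. In primary oocytes of plates 1, 5 and 6 RP24-550H17.1 had 282, 55.7 and 27.2 CPM, against 44.8 in all transitioning oocytes. RP23-109A22.2 had 51.3, 629 and 887, against 118, and RP24-202N2.3 539, 1231 and 418, against 311. The part of the plate in these 3 ratios was not tested. Plate 6 holds 3 transitioning and 8 primary oocytes. There 3 members were higher and 4 lower, or 4.41% and 5.88% of the members, against 6.58% and 5.13% of all rows. On it RP23-324A4.2 had 56.7 CPM in transitioning and 42.8 in primary oocytes, from 4 and 12 counts, too few for a direction.

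From primary to secondary oocytes 5 members were higher and 21 lower, against 5.21% and 22.7% of all rows, or 7.14% and 30% of the members. RP23-79J21.3 had no count in the 7 secondary oocytes, which allows up to 12.5 CPM at 3 counts over the group, and 109.6 CPM in primary oocytes, so that it was at least 8.77-fold lower. Secondary oocytes are on plates 5 and 6 alone. There its primary oocytes had 0 and 3.06 CPM, against 168 on plate 1, so the pooled difference rests on primary oocytes of other plates. RP24-392J24.4 had 103 and 11.9 CPM, a log2 ratio of -3.12 (-5.34 to -1.46), and RP23-324A4.2 one of -3.04 (-4.50 to -1.90). In primary oocytes of plates 1, 5 and 6 the former had 223, 13.4 and 28.5 CPM and the latter 379.8, 33.4 and 42.8. Both pooled ratios thus compare in part plate 1 with plates 5 and 6. In the other direction RP23-253N17.1 had 158 CPM in primary and 483 in secondary oocytes, a log2 ratio of 1.62 (1.27 to 1.95). Its primary oocytes had 79.2 CPM on plate 1, 268 on plate 5 and 378 on plate 6. No member with mostly whole counts was called higher on plate 5 or plate 6 alone. RP24-280G4.3 had 2233 and 6543 CPM and RP23-137A24.3 162 and 428, with log2 ratios of 1.55 and 1.40. Primary oocytes of plates 1, 5 and 6 had 519, 3842 and 5531 CPM of the first and 124, 305 and 224 of the second. The part of the plate in these ratios was not tested. On plate 5, with 5 secondary and 4 primary oocytes, 11 members were higher and 9 lower. As shares of the members that is 16.7% and 13.6%, against 6.1% and 23.7% of all rows. On plate 6, with 2 secondary and 8 primary oocytes, 4 were higher and 11 lower, or 6.06% and 16.7%, against 2.52% and 40.8% of all rows.

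Over the whole order of stages, 14 of the 70 members stood lower at each later stage and 6 stood higher, or 20% and 8.57%, against 17.8% and 14.3% of all rows, so the first share is close to the background and the second under it. Besides RP23-376H18.1, RP24-202L5.2 and RP24-357G2.2, which are described here, those that stood lower at each step were RP23-233O21.6, RP23-264J18.3, RP24-228M19.1, RP23-24J10.5, RP23-181P23.2, RP23-403O11.1, RP23-192P17.3, RP24-458F14.4, RP23-79J21.3, RP23-199B10.2 and RP24-392J24.4, and those that stood higher were RP24-541P18.1, RP23-274G21.3, RP24-317P24.1, RP23-109A22.2, RP23-253N17.1 and RP23-137A24.3. RP24-202L5.2, whose counts are whole, had 668 CPM in primordial oocytes, 510.1 in transitioning, 143 in primary and 33.3 CPM in secondary oocytes. Single plates gave 571 in primordial and 179 in primary oocytes of plate 1, 337, 100.3 and 30.5 in primordial, primary and secondary oocytes of plate 5, and 170.2, 135 and 39.5 in transitioning, primary and secondary oocytes of plate 6. On plate 2 the 7 primordial oocytes stood at 693 and the 1 primary oocyte at 127 CPM. The order of stages was the same on these plates except for the 1 transitioning oocyte of plate 1, at 149 CPM. On plate 1 RP23-324A4.2 had 1689 CPM in primordial and 379.8 in primary oocytes. RP24-357G2.2 stood at 18020 CPM in primordial oocytes, 10302 in transitioning, 10295 in primary and 3312 CPM in secondary oocytes, yet on plate 5 its secondary oocytes, at 3682 CPM, were above its primary ones, at 676. RP23-233O21.6 had 2645 and 3838 CPM in primary oocytes of plates 5 and 6, below its pooled secondary level of 6633. On plate 6 each abundant member was above 0 in log2 ratio of secondary over primary oocytes, the lowest at 0.049. RP23-253N17.1 stood higher at each later stage, at 79.9 CPM in primordial oocytes, 113 in transitioning, 158 in primary and 483 CPM in secondary oocytes, and on plate 6 had 269, 378 and 500.1 CPM from transitioning to secondary. RP23-109A22.2 followed the plate more than the stage: its primary oocytes had 51.3 CPM on plate 1, 32.3 on plate 2, 629 on plate 5 and 887 on plate 6. RP23-231M4.5 differed little by stage in pooled level, with 153 CPM in primordial oocytes, 209 in transitioning, 121 in primary and 113 CPM in secondary oocytes.

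**Figure D5:**
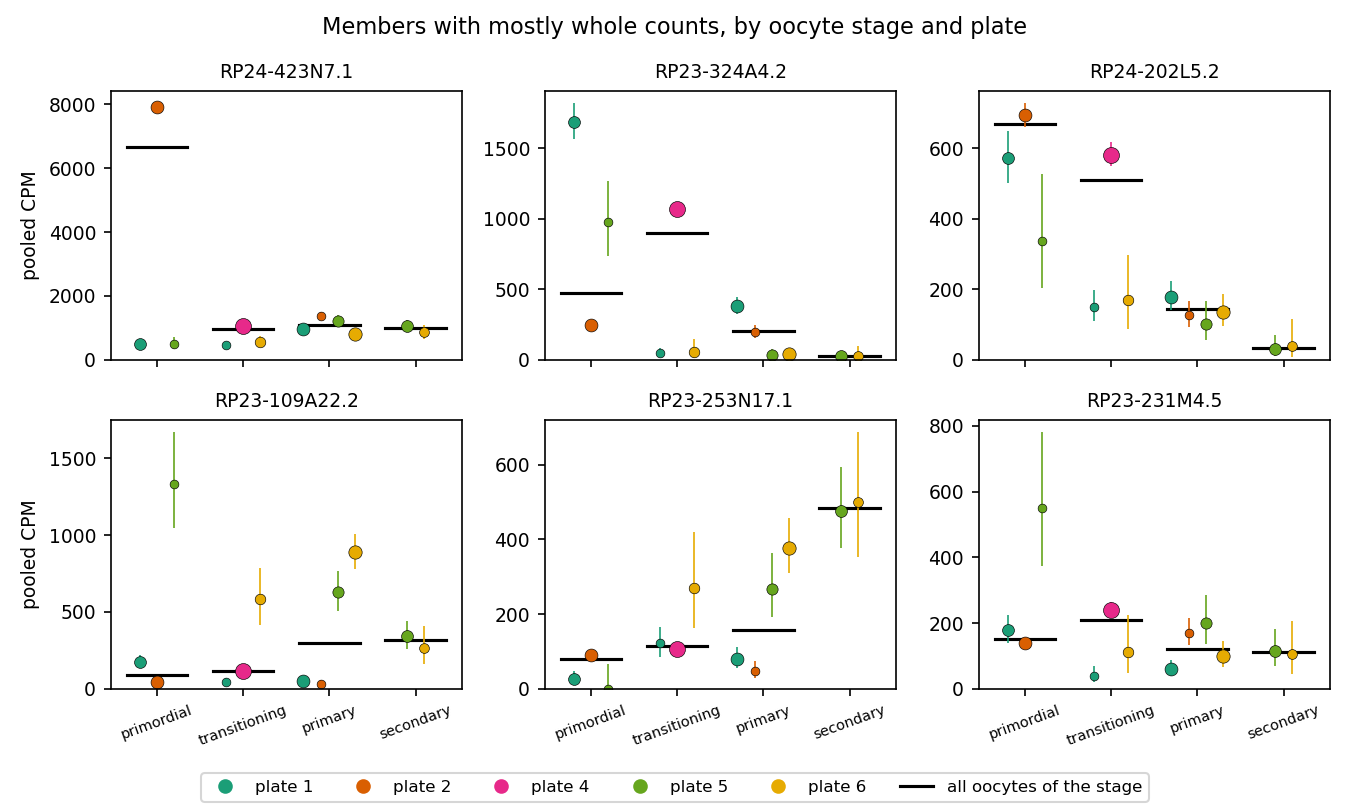
Pooled CPM (vertical axis) of 6 members with mostly whole counts by oocyte stage, 1 point per plate with its exact 95% Poisson interval (counting error only), larger points standing for more oocytes and black bars for all oocytes of the stage. RP24-423N7.1 is high in the primordial oocytes of plate 2 alone, RP24-202L5.2 is low in secondary oocytes on both plates that hold them, and RP23-109A22.2 is high on plates 5 and 6.

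The share of counts on each kind of member moved with the read composition that the deposited metadata give for a cell. Over the 59 oocytes the share of the 39 other divided members had a Pearson r of 0.79 with the fraction of intronic bases (0.71 with plate means subtracted). With the fraction of coding bases it had an r of -0.71 (-0.54). The share of the abundant members was less related to such measures, with 0.28 (0.41) for the fraction of intergenic bases and -0.33 (-0.19) for that of ribosomal reads. The share of the members with mostly whole counts followed the fraction of bases in untranslated regions, at 0.64 (0.61). The median fraction of intronic bases was 5.37% in oocytes and 19% in somatic cells, and the 39 other divided members took 2.9% of oocyte and 4.62% of somatic counts. The part of read composition in the levels of the members was not tested.

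The 70 members lie on 70 different clones, and no 2 of them share one. For 27 members the table holds at least 1 further row of the same clone, and for 26 of these at least 1 such row has values on every plate. Among rows with values on every plate the highest were RP23-264J18.6 at 63.1 CPM beside its neighbour RP23-264J18.3 at 2766, and RP23-356D13.8 at 26.1 beside RP23-356D13.9 at 427. RP24-280G4.3, at 2204 CPM, lay on the clone of RP24-280G4.6, which had 1.03 CPM. Among rows whose oocyte values are on plate 1 alone, some went higher: RP23-141N19.9, on the clone of RP23-141N19.12, had 11622 CPM in the oocytes of that plate, where RP23-141N19.12 had 933, and RP23-403O11.9, on the clone of RP23-403O11.1, had 184 CPM. Apart from these 2, no further row of a member's clone reached 100 CPM in the oocytes in which it has a value.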

How the data were processed

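Single-cell SMART-Seq2 libraries of 59 oocytes and 185 somatic cells were analysed. The authors aligned reads to GRCm38 and deposited a table of estimated counts per gene and cell, not normalized; the counter and the annotation release are not given in the sources used here. The authors also deposited cell metadata with the total read count, the fraction of ribosomal reads and the fractions of intronic, intergenic, coding and untranslated bases. The study's own work used Seurat 4 and kept protein-coding genes, a filter not repeated here. It also removed cells with high scores for markers of the other cell type, and the deposited somatic cells match its filtered set in number.

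Of 25149 rows, 27 carry dates in place of names (0.0743% of counts) and were left out. Empty cells of the table stayed empty. The 70 members and the marker lists were chosen with earlier results of these data known. Named members are the 12 with the highest oocyte CPM, the 5 at each end of the oocyte to somatic ratio, the 3 at each end of each stage step, those at the threshold and the closest feature of each of the 12; others, among them the division by whole counts, the stage and plate examples and the groups by correlation, were chosen after their values were seen. Counts were summed over cells, and sums compared as log2 ratios of CPM. Intervals at 95% are exact Poisson or binomial ones and cover counting error only, since SMART-Seq2 carries no molecular identifiers. With 3 counts or fewer in both groups no ratio is given. No test was made. Alternatives were other scalings, TMM from edgeR 4.0.16 and the size factors of DESeq2 1.42.0, as well as mean CPM of cells, thinning to 12000 counts, other thresholds and totals, and single plates. The calculation was tested on simulated data. Python 3.11.15, pandas 2.3.3, scipy 1.17.1 and R 4.3.3 were used.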

Additional observations from a re-analysis of the deposited data

Results flagged for a closer look

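Among the 7 secondary oocytes, 27 sets of values were examined for a cell far from the others and 3 had one, a criterion that chance meets in about 1 of 20 sets. RP23-403O11.1 was at 279.6 CPM in 1 oocyte and between 0 and 98.9 in the others. RP23-253N17.1 was at 927 CPM in 1 oocyte and between 336 and 541 in the others. RP23-376H18.1 was at 112 CPM in 1 oocyte and between 0 and 24.7 in the others. Its pooled level in secondary oocytes was 25 CPM, where 3 counts over the group make 12.5 CPM. The value thus rests on few counts, for which the rate of 1 of 20 need not hold.

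Clone-named rows without values on every plate are outside the members, and 107 of 438 had at least 100 CPM in the oocytes with a value, 75 of them above the somatic cells with a value. The highest of these were RP23-161F5.2 with 20873 CPM in oocytes against 718 in somatic cells (values on plate 6), RP23-141N19.9 with 11622 against 869.6 (plate 1) and RP24-108G5.1 with 8428 against 50.9 (plate 5).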

How the results depend on the processing

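The number of members was 70 and stayed between 53 and 100 over other thresholds, totals, means of single cells and plates left out, but was 177 when rows without values on every plate were admitted. Their pooled share of oocyte counts, 47.6%, was 26.7% of all counts and 34.2% as the median of single cells. Against somatic cells, the 38 higher members became 6 and the 20 lower 1 when members with over 10% of values not whole were left out, 11 members remaining. The 20 lower became 10 with TMM, 5 with median-of-ratios factors and 10 with totals without clone-named rows, an alternative chosen after seeing the data. For transitioning over primordial oocytes, 4 members were higher and 14 lower, against 23.7% and 11.8% of all rows. Without primordial oocytes of plate 2 the number of higher members became 24, and the share of all rows was 20.4%. Without cells of conflicting time code the number of higher members became 7, and the share of all rows was 35.4%. Without plate 1, also chosen after seeing the data, the counts were 10 and 8, against 41% and 11.1%. For primary over transitioning, 5 members were higher and 12 lower, against 6.64% and 16.9% of all rows. The higher became 11 with means of cells and 11 with thinned cells, against 11.1% and 10.7% of all rows. Plate 6 alone gave 3 and 4, against 6.58% and 5.13%. For secondary over primary, 5 members were higher and 21 lower, against 5.21% and 22.7% of all rows. The higher became 3 with means of cells and 1 with thinned cells, against 2.08% and 1.56% of all rows. Plate 5 alone gave 11 and 9, against 6.1% and 23.7%, and plate 6 alone 11 lower, against 40.8%. Leaving out members with divided values leaves fewer to count, and the cause of the other differences was not tested. Of 339 values of the oocyte to somatic ratio of 20 named members, 105 moved by 1 or more on the log2 scale and none changed sign. Stage ratios of single members were recomputed within plates only, and there RP24-357G2.2 had a log2 ratio of secondary over primary oocytes of -1.64 in all and 2.45 on plate 5. No paired analysis was possible because the replicate numbers only number the cells of a group and no test was made. Depth limits the secondary oocytes most, at 12.5 CPM for 3 counts over the group.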

Other observations

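Several members outside the 12 leading ones varied with a symbol-named gene over the 59 oocytes, again on log2(CPM + 10) with plate means subtracted, as a description over cells that share plates and totals. These were picked after their values were seen. RP23-264J18.3, with 71.3% of values not whole, had an r of 0.91 with Sod1, which encodes the cytosolic copper-zinc superoxide dismutase, and RP24-261H7.9, with 18.6%, one of 0.74 with Sod2, the mitochondrial enzyme. RP23-478I18.1 had an r of 0.84 with Carhsp1, RP23-403O11.1 one of 0.78 with Triap1 and RP23-68E4.3 one of 0.75 with the same gene. RP24-423N7.1, which has no divided values, had its highest r with Taf7, a subunit of the general transcription factor TFIID, at 0.74.

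The 4 somatic cells with more counts on oocyte than on somatic markers were 3 from primordial and 1 from primary follicles. Their shares of counts on the abundant members ran from 0.486% to 5.66%, inside the range of 0.0951% to 24.4% over all somatic cells.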
